A study of Mus musculus with 8 samples.

Results

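The 37 genes described here encode the enzymes of glycolysis, the enzymes and regulators of glycogen storage and breakdown, and the carriers that move glucose and lactate across the muscle membrane. They were taken as a named list of enzymes, regulators and carriers and matched to the deposited table by mouse Ensembl identifier. All 37 were found among the 23008 mouse genes of the table, and all 37 had a mean of at least 10 normalised reads, the minimum for testing. The tissue was gastrocnemius, a large muscle of the calf, and 8 RNA libraries from wild-type C57BL/6J mice enter the comparison. Every sample came from muscle that had received AAV9, an adeno-associated virus that reaches striated muscle from the blood, carrying a gene-activating epigenome editor named GNDM in the labels. In 4 samples (m31) the editor came with guide m31, which targets Lama1, and in 4 samples (control) with a guide that has no target, so both groups carry virus and editor and no uninjected muscle is among them. Injection was into the tail vein, at 7 weeks of age in one label and at 7 to 12 weeks in another, and muscle was taken 11 weeks later. The labels do not say that each library came from its own animal, so the p-values speak for the variation among these libraries, some of which may be technical.

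Glycolysis splits glucose into pyruvate and yields ATP without oxygen, and fast-contracting muscle fibres depend on it during short, hard work. The fibres draw their glucose from the blood through membrane carriers or from glycogen, a branched store that phosphorylase cuts and glycogen synthase extends. When pyruvate is made faster than mitochondria use it, lactate dehydrogenase turns it into lactate, which leaves the fibre or enters a more oxidative one through monocarboxylate carriers. Most steps have several genes for the same reaction, 1 of them known as the form of mature muscle and the others more widely expressed, and the question asked of these data is how far the forms of each step differ in level and whether the guide moved any of them.

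Values are normalised reads, that is reads per gene divided by 1 size factor per library. The libraries held 25157486 to 39210248 reads in mouse genes. Lama1, the target, lay between 86.5 and 294.7 normalised reads in m31 muscle and between 0 and 4.18 in control muscle, and was the one gene of the 15960 tested that passed the threshold of 0.05 (limma, log2 difference 6.60, adjusted p = 0.00372). Defining genes of skeletal muscle were high in every library, and their summed level, over 6 genes, ran from 1483653 in control replicate 3 to 2012781 in control replicate 2. Control replicate 3 stood apart for many of the genes described here, and m31 replicate 4 had the highest summed macrophage, fibroblast and tendon markers. The same m31 library had the lowest Lama1 of its group, 86.5 normalised reads. Its GNDM transcript, at 6157 normalised reads, was the lowest of all 8 libraries. The part of these levels in its other values was not tested. For several results described below that moved by much without control replicate 3 or m31 replicate 4, the value without that library is given.

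None of the 37 genes passed the threshold between the guides in limma, edgeR or DESeq2. The background over all genes in each fit was 0.00627% in limma, 0.00618% in edgeR and 0.135% in DESeq2. Of the 23007 genes in the DESeq2 fit, 4047 had no adjusted p and could not pass, none of them a member. At an unadjusted p under 0.05 the count was also 0 of 37 with each of these tools, beside 6.79% of all genes in limma (3.76% higher and 3.03% lower with m31), 7.02% in edgeR and 5.38% in DESeq2. No member had groups that did not overlap, beside 3.85% of all genes (1.84% higher and 2.02% lower with m31). The differences, taken as m31 minus control on the log2(value + 1) scale, ran from -0.37 for Pfkfb3 to 0.31 for Pygb. They were positive in 21 members and negative in 16, with a median of 0.02 beside 0.01 over all genes. In 20 members the difference was smaller than 0.1 in either direction. The adjusted p-values of the members ran from 0.733 to 0.997 (limma, 4 against 4 libraries). In bulk muscle, fewer cells of a type and less RNA per cell cannot be told apart.

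How much change the design could have hidden is given by the 95% intervals of the differences, each taken alone. For 31 members the interval stayed within 1.5-fold in either direction and for all 37 within 2-fold. Over all genes tested, 62.3% had an interval within 1.5-fold and 87.0% within 2-fold. The 6 members whose interval went past 1.5-fold were Aldoc, Ldhb, Pygb, Ppp1r3c, Pfkfb3 and Slc16a3. The narrowest log2 intervals were those of Phkb, -0.26 to 0.10, Eno1, -0.19 to 0.18, and Ppp1r3a, -0.31 to 0.07. The median SE of a difference was 0.13 in the members and 0.15 over all genes, and the median SD within a group was 0.20 beside 0.21, both on the log2 scale.

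**Figure D1:**
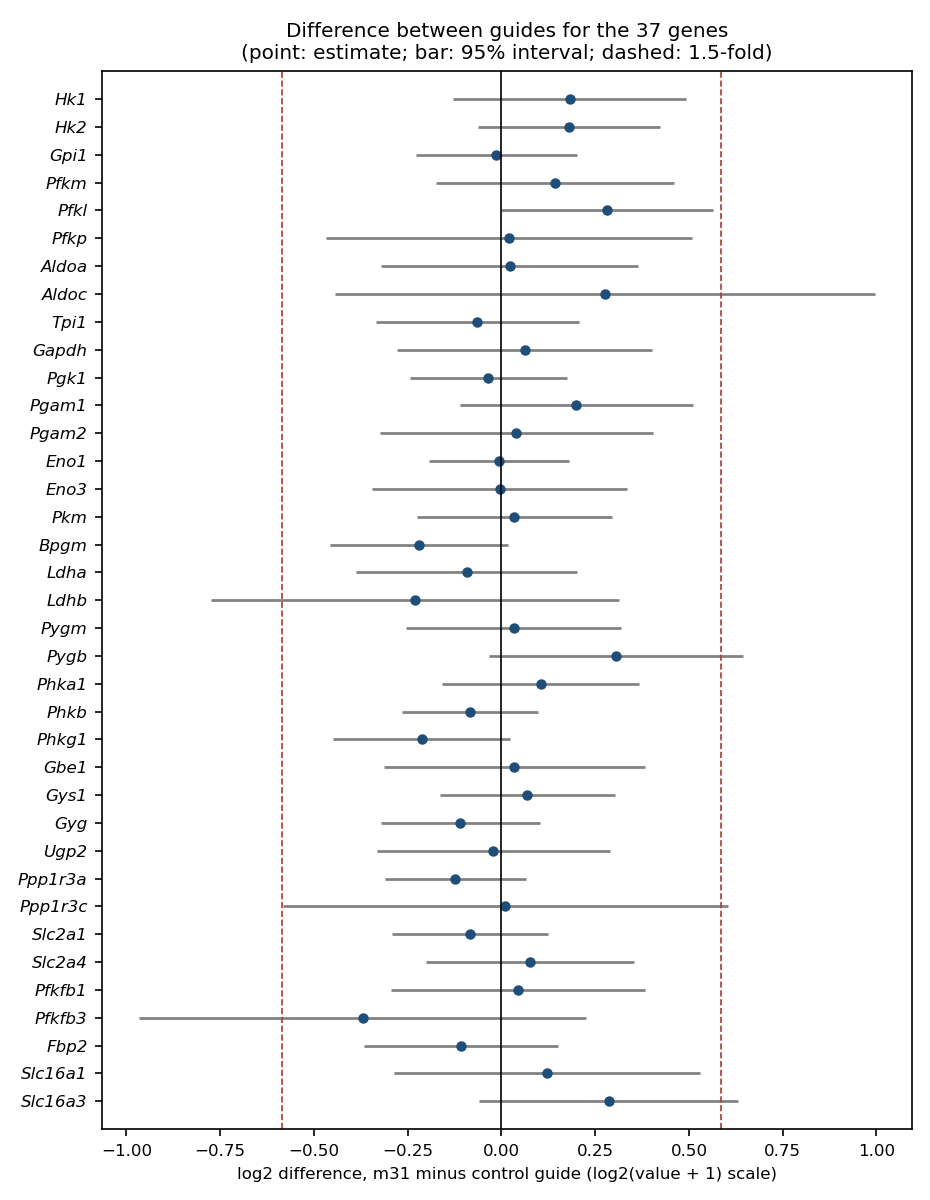
Difference in level between m31 and control muscle for each of the 37 genes, on the log2(normalised reads + 1) scale, with the 95% interval from limma (4 against 4 libraries) as a bar and dashed lines at 1.5-fold in either direction. The points lie between -0.37 (Pfkfb3) and 0.31 (Pygb), and the widest bars belong to Aldoc, Ppp1r3c and Pfkfb3.

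The 37 genes together took 4.47 to 5.68% of all reads in genes. Their share was 5.29 ± 0.26% (SD, n = 4) in m31 muscle and 5.08 ± 0.51% (SD, n = 4) in control muscle, and the lowest library was control replicate 3. Levels of different genes are compared per kilobase of the union of a gene's annotated exons. On that scale Aldoa, muscle aldolase, was highest with a mean of 129975 normalised reads per kilobase, followed by the phosphorylase Pygm at 92064 and the enolase Eno3 at 83952. Gapdh at 51028, Pgam2 at 49261 and Pfkm at 38483 normalised reads per kilobase came next, and Aldoc was the lowest of the 37 at 3.75. The genes of one pathway thus spanned more than 4 orders of magnitude in level, with fast-muscle forms at the upper end and forms known from other tissues at the lower end.

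Summed over the genes that share a reaction, the steps of glycolysis were far from equal in level. Aldolase had 130347 ± 9426 normalised reads per kilobase in m31 muscle and 129611 ± 21577 in control muscle (SD, n = 4 each), and enolase 83837 ± 6252 and 85322 ± 16751. Glyceraldehyde-3-phosphate dehydrogenase at 51784 ± 3792 and phosphoglycerate mutase at 49677 ± 3120 normalised reads per kilobase with m31 did not differ beyond their spread, and phosphofructokinase lay below them at 40223 ± 2020 (SD, n = 4 each). Lower again, also with m31, were lactate dehydrogenase at 23895 ± 1754, pyruvate kinase at 19408 ± 1596 and triose phosphate isomerase at 18997 ± 1359, the last pair within their spread, and then phosphoglycerate kinase at 11915 ± 1290 normalised reads per kilobase (SD, n = 4 each). Glucose-6-phosphate isomerase at 3679 ± 156 and hexokinase at 2679 ± 254 were the lowest steps with m31, and in control muscle they stood at 3732 ± 446 and 2372 ± 311 normalised reads per kilobase (SD, n = 4 each). Hexokinase, which admits free glucose to the pathway, was therefore the step with the least RNA per kilobase in both groups, and aldolase the one with the most. With the length of the longest transcript in place of the union of exons, the order of the 11 steps with m31 was the same.

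**Figure D2:**
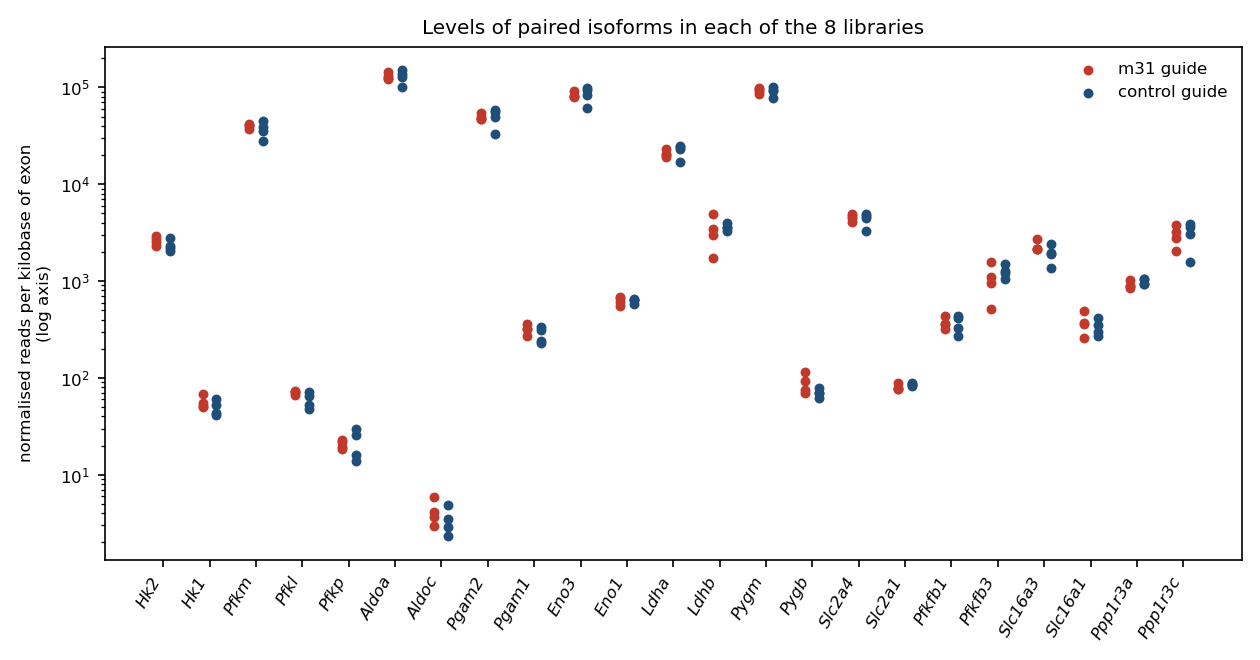
Level of each form of the isoform pairs in every library, in normalised reads per kilobase of exon on a log axis, with the guides in separate colours. The known muscle forms (Hk2, Pfkm, Aldoa, Pgam2, Eno3, Ldha, Pygm, Slc2a4 and Slc16a3) lie above their partners in all 8 libraries, and Pfkfb1 and Ppp1r3a lie below theirs.

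Hexokinase phosphorylates glucose on entry. Hk2, the form of insulin-sensitive muscle, read 16097, 13833, 17481 and 15201 normalised reads in m31 replicates 1 to 4 and 13798, 16454, 12105 and 13099 in control replicates 1 to 4. The groups overlapped, since control replicate 2 lay above 3 of the m31 libraries, and the log2 difference was 0.18 (SE 0.11, limma adjusted p = 0.804). Hk1, the form of most other tissues, had 427, 468, 439.6 and 581 normalised reads in m31 muscle and 374, 452, 512 and 356 in control muscle. Its log2 difference was also 0.18, with an SE of 0.14 and a limma adjusted p of 0.840. Per kilobase, Hk2 exceeded Hk1 47.7-fold on average and made up 97.9% of the pair, from 33.8-fold in control replicate 3 to 56.8-fold in m31 replicate 3. With the longest transcript as the length the mean was 25.9-fold.

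The glucose carriers feed this step. Slc2a4, the insulin-responsive carrier of muscle and fat, had 16268, 15397, 17181 and 14209 normalised reads in m31 muscle and 15524, 17143, 11436 and 16267 in control muscle, lowest in control replicate 3. Its log2 difference of 0.08 (SE 0.13) turned to -0.05 without that library. Slc2a1, the basal carrier, lay between 269 and 311 normalised reads in all 8 libraries, a 1.16-fold range. Its within-group SD of 0.07 on the log2 scale put it at percentile 3.48 of all genes, so it was among the steadiest transcripts measured here, with a log2 difference of -0.08 (SE 0.09). Slc2a4 exceeded Slc2a1 53.8-fold per kilobase.

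Phosphofructokinase makes the committed step of glycolysis, and its subunits are encoded by Pfkm (muscle), Pfkl (liver) and Pfkp (platelet). Pfkm read 140369, 125292, 138169 and 132332 normalised reads in m31 muscle and 131542, 148438, 92859 and 119261 in control muscle. The m31 libraries lay inside the range of the controls, whose lowest value was again control replicate 3, and the log2 difference of 0.14 (SE 0.14) became 0.01 without it. Pfkl (ENSMUSG00000020277, chr10:77986947-78010083, minus strand, in the GENCODE annotation of GRCm38, as for the positions that follow) had 474, 489, 482 and 449.5 normalised reads in m31 muscle and 352, 431, 475 and 317 in control muscle. All controls but replicate 3 lay below every m31 library. Pfkl had the smallest p of the 37 genes, and its log2 difference was 0.28 (SE 0.13, unadjusted p = 0.0502, limma adjusted p = 0.733). Without control replicate 3 the log2 difference of Pfkl was 0.38 with an unadjusted p of 0.00788 and an adjusted p of 0.323 (limma), and across all alternatives tried it passed an unadjusted 0.05 in 6 of 19.

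Pfkp was low and variable, at 292, 261, 248 and 308 normalised reads in m31 muscle and 214, 186, 399 and 344 in control muscle. Its exons share 748 bases with Pitrm1 on the opposite strand, whose mean level is 401% of that of Pfkp, and as the strand setting of the counting is not given, reads of the 2 genes cannot be told apart there. Per kilobase, Pfkm exceeded Pfkl 605-fold and Pfkp 1977-fold on average. The muscle subunit was thus nearly all phosphofructokinase RNA in both groups, and Pfkl and Pfkp together stayed below 1% of it.

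The activity of this step and of its reverse is set by fructose bisphosphates, which the Pfkfb enzymes make and break down, and by the bisphosphatase Fbp2 of muscle. Pfkfb3 (ENSMUSG00000026773, chr2:11471433-11554077, minus strand) had the lowest difference of all 37 genes, with 12008, 8256, 7281 and 3925 normalised reads in m31 replicates 1 to 4 and 9526, 7893, 9188 and 11453 in the controls. The highest and the lowest library were both in the m31 group, a 3.06-fold range, and the log2 difference of -0.37 had an SE of 0.27 (limma adjusted p = 0.838). Without m31 replicate 4 it was -0.07, and without m31 replicate 1 it was -0.61, with an unadjusted p of 0.0238 and an adjusted p of 0.654 (limma). Pfkfb1, the form known from liver and muscle, ran from 1269.6 to 1760.4 normalised reads in m31 muscle and from 1082 to 1754 in control muscle, with a log2 difference of 0.04 (SE 0.15). Per kilobase Pfkfb1 was the lower of these forms, at 0.357 of Pfkfb3 on average and 0.695 of it in m31 replicate 4. Fbp2 lay between 806 and 1187 normalised reads, with a log2 difference of -0.11 (SE 0.12).

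Aldolase splits fructose bisphosphate into triose phosphates. Aldoa read 416713, 360297, 357359.9 and 383345 normalised reads in m31 muscle and 404493, 437031, 290531 and 377091 in control muscle, with a log2 difference of 0.02 (SE 0.16). Aldoc, the brain form, stayed between 7.53 and 19.0 normalised reads, near the lower limit of what was tested, so its log2 interval, which began at -0.45, was the widest of the 37. The annotation gives the symbol Aldoa to a second entry upstream of the gene, which had 1571 to 1976 normalised reads and a log2 difference of 0.06, and which is not counted among the 37. Reads of near-identical copies may be exchanged with those of Aldoa, but the processed copy Aldoart1 came to no more than 0.427% of it.

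Triose phosphate isomerase Tpi1, glyceraldehyde-3-phosphate dehydrogenase Gapdh, phosphoglycerate kinase Pgk1 and pyruvate kinase Pkm have 1 main form each in muscle. Gapdh, often used as a reference transcript, had 236162, 200597, 205895 and 213445 normalised reads in m31 muscle and 216372, 255065, 156855 and 202809 in control muscle, a log2 difference of 0.06 (SE 0.15). The library range was 1.63-fold, wider than that of Pgk1 at 1.24-fold or of Slc2a1. Log2 differences were -0.06 (SE 0.12) for Tpi1, -0.03 (SE 0.09) for Pgk1, 0.03 (SE 0.12) for Pkm and -0.01 (SE 0.10) for the isomerase Gpi1. None of these 5 genes had an interval past 1.5-fold, and all but Pgk1 were lowest in control replicate 3.

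Phosphoglycerate mutase has a muscle form and a general form, and the 250 bases before a RefSeq start of each are shown because they differ in E-boxes, the letters CANNTG that myogenic factors bind. The pair was picked after its matches had been counted. The windows are from RefSeq on build GRCm38.p6, 5′ to 3′ on the strand of the gene: Pgam2 at chr11:5803797-5804046 on the minus strand and Pgam1 at chr19:41911621-41911870 on the plus strand. Capitals mark matches to CANNTG, a motif that reads as a match on both strands at once.
Pgam2: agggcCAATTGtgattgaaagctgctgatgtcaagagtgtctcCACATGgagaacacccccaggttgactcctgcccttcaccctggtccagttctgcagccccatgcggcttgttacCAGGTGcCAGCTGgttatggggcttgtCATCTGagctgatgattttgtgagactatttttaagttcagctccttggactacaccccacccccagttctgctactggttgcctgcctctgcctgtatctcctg
Pgam1: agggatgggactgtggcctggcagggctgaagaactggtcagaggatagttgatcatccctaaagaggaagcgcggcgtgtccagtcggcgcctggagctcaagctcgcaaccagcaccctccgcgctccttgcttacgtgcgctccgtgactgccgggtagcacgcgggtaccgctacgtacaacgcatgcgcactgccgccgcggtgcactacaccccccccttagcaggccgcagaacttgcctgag
The Pgam2 window held 5 matches and the Pgam1 window 0. At least 1 match was in 69.2% of the 52 windows of the 36 members that have an entry, all but Slc2a4, and in 66.2% of all 32851 windows of this length. A match is a run of letters and not a measured site, and no match says only that these letters are not in the window.

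Pgam2, with 5 such matches, read 45314, 41098, 39746 and 39688 normalised reads in m31 muscle and 46977, 49207, 27431 and 41574 in control muscle. Pgam1, with none, had 533, 639.7, 712 and 639 in m31 muscle and 454, 477, 668 and 614 in control muscle. In control replicate 3 the muscle form was at its lowest and the general form at its second highest, so the per-kilobase ratio of 172 on average fell to 97.0 there, while control replicates 1 and 2 had the highest ratios, 243.9 and 243.4. The log2 differences between the guides were 0.04 (SE 0.17) for Pgam2 and 0.20 (SE 0.14) for Pgam1. The pseudogene Pgam1-ps2 was listed at 28.0 to 34.7% of the reads of Pgam1, so the level of Pgam1 is uncertain by what the counting exchanged between them. The muscle mutase held 99.4% of the pair per kilobase.

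Bpgm (ENSMUSG00000038871, chr6:34476207-34505613, plus strand), the related mutase that makes the bisphosphoglycerate of red blood cells, had 2537, 2268, 2121 and 2488 normalised reads in m31 muscle and 2922, 3087, 2249 and 2757 in control muscle. Control replicate 3 was the exception among controls that otherwise lay above all m31 libraries, and the log2 difference was -0.22 (SE 0.11, unadjusted p = 0.0654, limma adjusted p = 0.753). Without that library it was -0.31 with a limma adjusted p of 0.318. Bpgm was highest in control replicate 2, which also had the highest summed level of 7 erythroid markers, 32843 normalised reads. The other controls had 8348 to 19423 and the m31 libraries 8721 to 16065, and of the 5 erythroid markers tested 0 were positive and 0 passed the threshold. The lowest sum, 8348, was in control replicate 4, where Bpgm read 2757. In m31 replicate 3, where Bpgm was lowest at 2121, the sum was 13469. The part of blood in the values of Bpgm was not tested.

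Enolase follows the mutase. Eno3, the muscle enolase, had 160872, 140554, 140384 and 136997 normalised reads in m31 muscle and 163608, 172271, 106714 and 146539 in control muscle, and Eno1, the general form, 2981 to 3648 over the 8 libraries. Their log2 differences were both close to 0, -0.00 (SE 0.15) and -0.01 (SE 0.08). Eno3 exceeded Eno1 134-fold per kilobase, from 105-fold in control replicate 3 to 153-fold in control replicate 2. The fold depends on the length used, and with the longest transcript its mean was 56.1. The near copy Eno1b was listed at 7.22 to 8.73% of Eno1.

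Lactate dehydrogenase is a tetramer of Ldha subunits, typical of fast glycolytic fibres, and Ldhb subunits, typical of heart and slow oxidative fibres. Ldha read 76049, 67203, 63596 and 66107 normalised reads in m31 muscle and 77314, 79526, 55579 and 81222 in control muscle. Control replicate 3 was the lowest of the 8 libraries and the other controls lay above all m31 libraries; the log2 difference was -0.09 (SE 0.13), and -0.22 without control replicate 3, with an unadjusted p of 0.0339 and an adjusted p of 0.391 (limma). Ldhb (ENSMUSG00000030246, chr6:142490249-142507957, minus strand) varied 2.88-fold, all of it within the m31 group, with 4699, 5366, 7814 and 2714 normalised reads in replicates 1 to 4, while the controls had 5217, 5552, 5625 and 6207. The m31 libraries lay on both sides of the controls, and the log2 difference was -0.23 (SE 0.25, limma adjusted p = 0.887). It was 0.05 without m31 replicate 4 and -0.46 without m31 replicate 3, the latter with an unadjusted p of 0.0423 and an adjusted p of 0.802 (limma). Of the 12 isoform pairs this was one of the least lopsided: Ldha exceeded Ldhb 6.72-fold per kilobase and made up 86.1% of the pair, from 79.4% in m31 replicate 3 to 92.0% in m31 replicate 4. With the longest transcript as the length the mean ratio was 10.2-fold and the mean share was 90.3%.

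The lactate carriers have a similar division, Slc16a3 being the form of glycolytic fibres that release lactate and Slc16a1 that of oxidative fibres that take it up. The motif ACGTG is the core bound by hypoxia-inducible factors, which are known to act on glycolytic genes, so the 250 bases before a start of both carriers are shown, from RefSeq on GRCm38.p6 and 5′ to 3′ on the plus strand, Slc16a3 at chr11:120948817-120949066 and Slc16a1 at chr3:104638414-104638663. Capitals mark matches to ACGTG on either strand.
Slc16a3: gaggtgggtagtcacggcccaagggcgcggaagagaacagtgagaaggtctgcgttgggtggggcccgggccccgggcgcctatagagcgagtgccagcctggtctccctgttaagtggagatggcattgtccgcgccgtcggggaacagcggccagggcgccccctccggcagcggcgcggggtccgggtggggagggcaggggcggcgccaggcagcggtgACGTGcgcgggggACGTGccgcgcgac
Slc16a1: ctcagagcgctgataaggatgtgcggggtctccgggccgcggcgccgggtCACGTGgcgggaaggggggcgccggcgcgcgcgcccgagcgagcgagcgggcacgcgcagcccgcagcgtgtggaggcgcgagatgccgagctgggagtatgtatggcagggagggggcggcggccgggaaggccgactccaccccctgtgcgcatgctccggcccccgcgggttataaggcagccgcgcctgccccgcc
The Slc16a3 window lies inside the gene as annotated by GENCODE, which begins at 120948480, while the Slc16a1 window ends before its gene at 104638668. Each window held 2 matches. Those of Slc16a1 are 1 on each strand and overlap in a single CACGTG, which is also a match to CANNTG. The core ACGTG was in 36.5% of the 52 windows of the members and in 16.6% of all 32851 windows. Both carriers thus hold the letters, and the share is given as a description of the windows.

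Slc16a3 had 14557, 11449, 11311 and 11372 normalised reads in m31 muscle and 10080.5, 12825, 7271 and 10322 in control muscle. All m31 libraries lay above 3 of the controls and control replicate 2 lay above 3 of the m31 libraries; the log2 difference was 0.29 (SE 0.16, limma adjusted p = 0.781). It was 0.14 without control replicate 3 and 0.41 without control replicate 2, the latter with an unadjusted p of 0.0176 and an adjusted p of 0.664 (limma). Slc16a1 read 1581, 1621, 2151 and 1135 normalised reads in m31 muscle and 1304, 1199, 1824 and 1564 in control muscle, a log2 difference of 0.12 (SE 0.18). As with Ldhb, its highest and lowest libraries were m31 replicates 3 and 4. Per kilobase Slc16a3 exceeded Slc16a1 6.30-fold and made up 85.3% of the pair, close to the share of Ldha in lactate dehydrogenase.

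**Figure D3:**
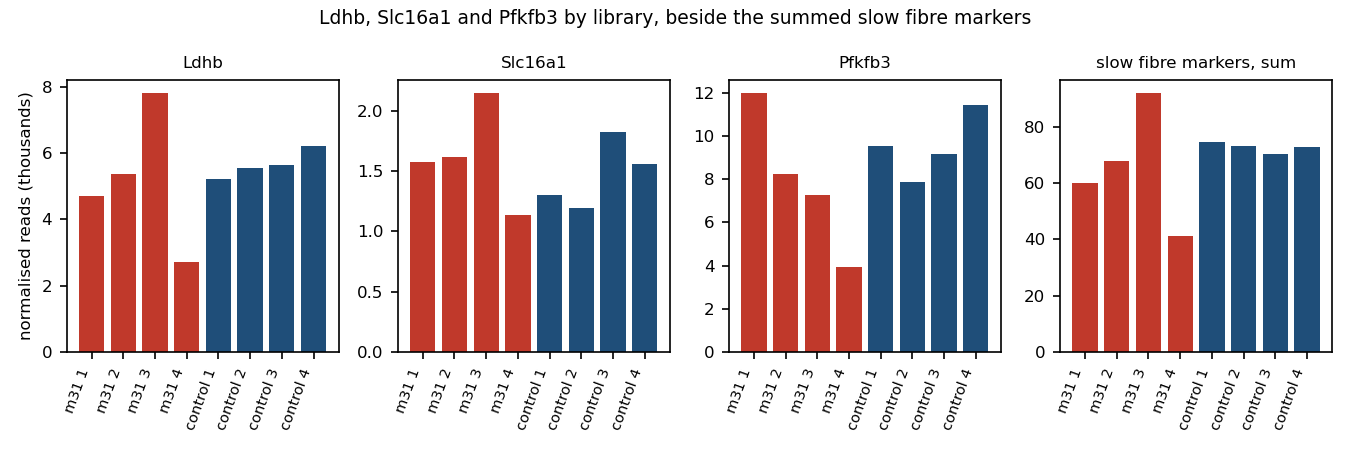
Normalised reads of Ldhb, Slc16a1 and Pfkfb3 and the summed level of 11 slow fibre markers in each of the 8 libraries, with the guides in separate colours. Ldhb, Slc16a1 and the sum of the slow fibre markers are highest in m31 replicate 3 and lowest in m31 replicate 4, which does not hold for each marker alone. Pfkfb3 is lowest in m31 replicate 4 and highest in m31 replicate 1.

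The libraries m31 replicates 3 and 4 also stood at the ends of the range of the summed slow fibre markers. The summed level of 11 slow fibre markers was 60202, 67846, 92059 and 41078 normalised reads in m31 replicates 1 to 4, while the controls lay between 70424 and 74710. Of these 11 markers 1 had a positive difference and 0 passed the threshold, with a median log2 difference of -0.35. The slow fibre markers Myh7, Tnni1 and Tnnt1 were each lowest in m31 replicate 4 but highest in a control. Myh7 read 9786 in control replicate 2, and Tnni1 and Tnnt1 read 1510 and 4337 in control replicate 1. In m31 replicate 3 they read 6188, 1230 and 3639. The summed fast fibre markers were highest in control replicate 2 and lowest in control replicate 3. Myh1 and Myh2, the myosins of the less glycolytic fast fibres, were highest in m31 replicate 3, at 214393 and 117816 normalised reads. Both were lowest in m31 replicate 4, at 98566 and 50472. Gbe1, the glycogen branching enzyme, had the same pattern at 1918 and 1048 normalised reads. Ldhb, Slc16a1 and Gbe1 were picked out after their values had been seen, and the part of fibre composition in their values was not tested. Without m31 replicate 4 and control replicate 3 together, the log2 difference of Ldhb was 0.04 in place of -0.23 and that of Pfkfb3 was -0.08 in place of -0.37. In the same fit that of Slc16a1 was 0.39 in place of 0.12 (limma, unadjusted p = 0.0190, adjusted p = 0.364). That of Ppp1r3a was -0.21 in place of -0.12 (limma, unadjusted p = 0.0208, adjusted p = 0.368).

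Glycogen is cut by phosphorylase. Pygm, the muscle phosphorylase, read 315386, 298082, 276657 and 306495 normalised reads in m31 muscle and 294892, 328260.1, 250096 and 300239.7 in control muscle, a 1.31-fold range with a log2 difference of 0.03 (SE 0.13). Pygb (ENSMUSG00000033059, chr2:150786735-150831758, plus strand), the brain form, had 334, 445, 364 and 552 normalised reads in m31 muscle and 338, 339.6, 374 and 297 in control muscle. It had the highest difference of the 37 genes, a log2 difference of 0.31 (SE 0.15, unadjusted p = 0.0719, limma adjusted p = 0.764), with m31 replicate 4 the highest library and m31 replicates 1 and 3 inside the range of the controls. Without m31 replicate 4 it was 0.17, below that of Pfkl at 0.31 and Slc16a3 at 0.32, and without m31 replicate 1 it was 0.41, with an unadjusted p of 0.0212 and an adjusted p of 0.638 (limma). Macrophage, fibroblast and tendon markers were highest in the same library, at summed levels of 7086, 172050 and 28612 normalised reads beside at most 5103, 89370 and 19457 in the others. All 7 macrophage, all 7 fibroblast and all 6 tendon markers had a positive difference, 0 of them past the threshold and none at 0 in all libraries. The part of those cells in the level of Pygb was not tested. Pygm exceeded Pygb 1204-fold per kilobase.

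Phosphorylase is switched on by phosphorylase kinase, whose muscle subunits are Phka1, Phkb and Phkg1. Phkg1 (ENSMUSG00000025537, chr5:129863421-129898549, minus strand), the catalytic subunit, had 14590.2, 13938, 11961 and 14230.4 normalised reads in m31 muscle and 16426, 16656, 13085 and 17460.1 in control muscle. The controls lay above all m31 libraries except control replicate 3, and the log2 difference was -0.21 (SE 0.11, unadjusted p = 0.0734, limma adjusted p = 0.765), or -0.30 without that library, with a limma adjusted p of 0.320. Of the regulatory subunits, Phka1 had a log2 difference of 0.10 (SE 0.12) and Phkb one of -0.08 (SE 0.08). The difference between the subunits was not tested.

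Glycogen is built by glycogenin Gyg, which starts the chain, Ugp2, which makes the sugar donor, the synthase Gys1 and the branching enzyme Gbe1. Their log2 differences were -0.11 (SE 0.10) for Gyg, -0.02 (SE 0.14) for Ugp2, 0.07 (SE 0.11) for Gys1 and 0.03 (SE 0.16) for Gbe1. Their ranges over the 8 libraries were 8140.1 to 10105 normalised reads for Gyg, 13331 to 19844 for Ugp2, 11778 to 15506 for Gys1 and 1048 to 1918 for Gbe1. The synthesis genes thus overlapped between the guides, and none had an interval past 1.5-fold.

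Ppp1r3a and Ppp1r3c encode subunits that carry a protein phosphatase to glycogen, where it activates the synthase. Ppp1r3a was steady at 5924 to 7378 normalised reads over the 8 libraries, with a log2 difference of -0.12 (SE 0.09). Ppp1r3c was variable in both groups, at 7511, 5589.5, 8766 and 10454 normalised reads in m31 muscle and 4322, 10529, 8287 and 9907 in control muscle, so a log2 difference of 0.01 came with an SE of 0.27. Its within-group SD of 0.50 was, with that of Pfkfb3, the highest of the 37 genes. Ppp1r3a, known as the striated muscle form, was 0.348 of Ppp1r3c per kilobase, and the share of Ppp1r3a in the pair ran from 20.5 to 40.0%.

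The balance of the forms was compared between the guides as a log2 ratio within each library, for 12 pairs, by exact permutation of the libraries (two-sided, 70 arrangements). The smallest p was 0.257, for Pygm over Pygb, whose log2 ratio was 9.49 ± 0.32 in m31 muscle and 9.76 ± 0.27 in control muscle (SD, n = 4 each, exact permutation test). After Benjamini-Hochberg adjustment over the 12 pairs all p-values were 1.0, and the smallest p this design allows is 0.0286. Every pair overlapped between the groups. The largest difference in size was 0.41 for Pfkfb1 over Pfkfb3, with an exact permutation p of 0.371, and the smallest was 0.00 for Eno3 over Eno1. With all 8 libraries kept, no shift from muscle to general forms, or back, was detectable between the guides at this number of libraries.

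**Figure D4:**
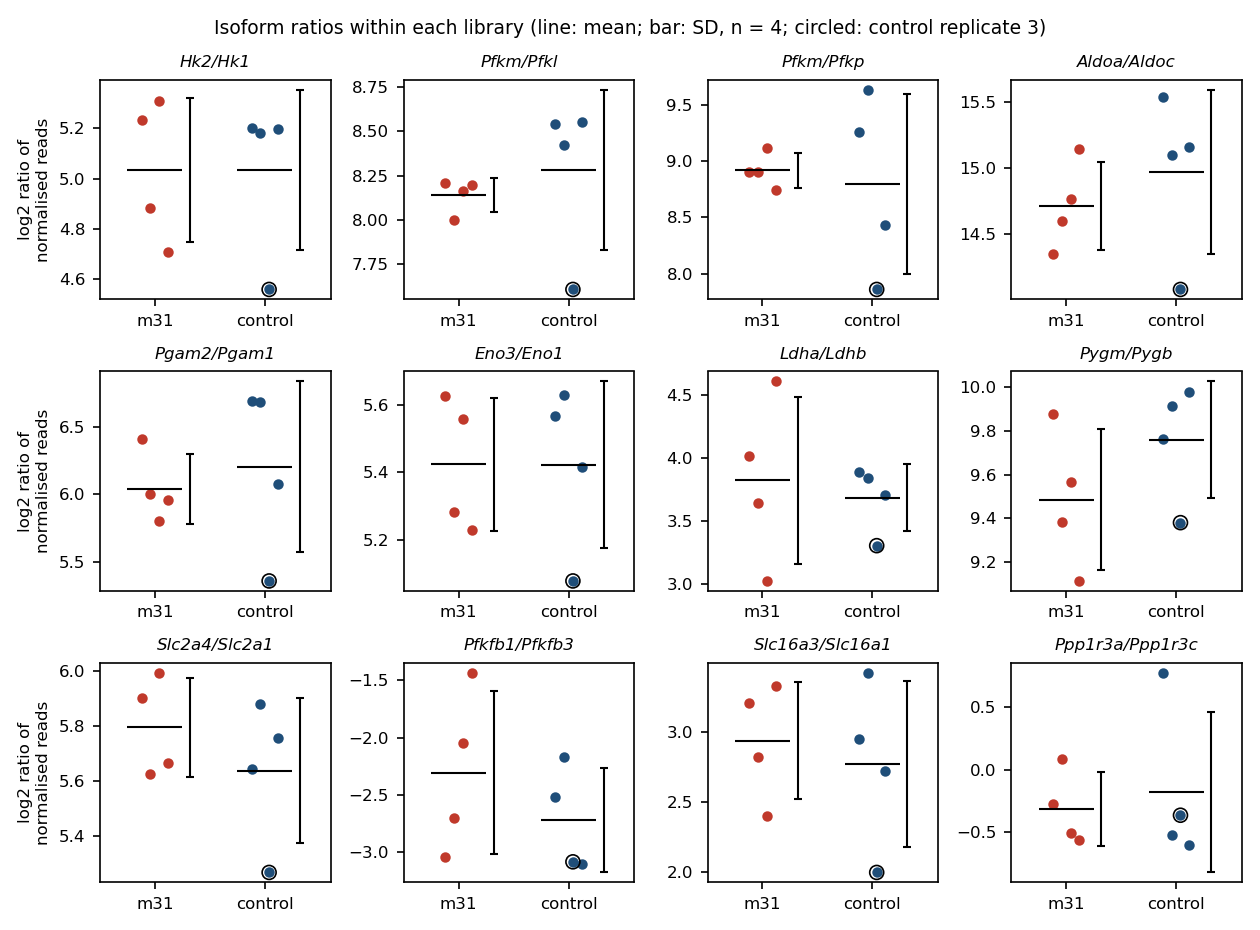
Log2 ratio of the normalised reads of the forms of each of the 12 pairs, a point per library, with a line at the mean and a bar for the SD (n = 4) of each group and control replicate 3 circled. The groups overlap in every pair, and control replicate 3 is the lowest library in 8 of the 12.

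The library that stood apart in these ratios was control replicate 3. It was the lowest of the 8 libraries for 17 of the 37 genes, where 20.8% of all genes tested were lowest there, and 27 of the 37 lay below the mean of the other 3 controls, with a median log2 deviation of -0.22 beside 0.00 over all genes. The deviation was not even over the forms. Of the 11 muscle forms in the pairs, 10 were lowest in control replicate 3, all but Ppp1r3a, and of the 12 partner forms 0 were. Deviations on the log2 scale from the other controls were -0.74 for Pgam2 and 0.39 for Pgam1, -0.51 for Pfkm and 0.38 for Pfkl, and -0.60 for Slc16a3 and 0.44 for Slc16a1. Not every partner form rose: Eno1 was at -0.13, Pfkfb3 at -0.05, Slc2a1 at -0.02 and Ldhb at -0.005, and the remaining partners were above 0. In the same library the summed level of 11 fast fibre markers was the lowest at 4032246 normalised reads, beside 4184769 to 5423525 in the others, and macrophage markers were the highest of the controls at 5103, beside 2040 to 2392. Its level of the GNDM transcript was the highest of all 8, at 37989 normalised reads. The other controls had 9802 to 13775 and the m31 libraries 6157 to 24487. The pattern was found after the values had been seen, and the part of these measures in it was not tested.

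**Figure D5:**
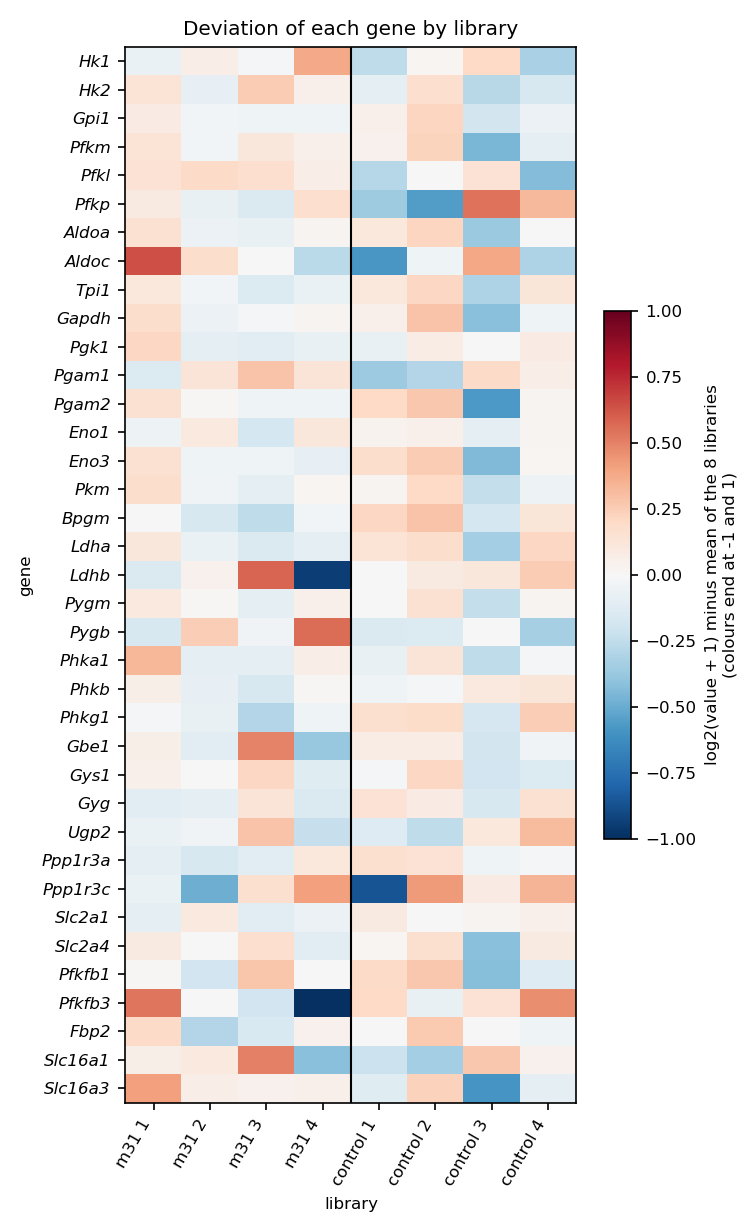
Deviation of each of the 37 genes in each of the 8 libraries from the gene's mean over all libraries, on the log2(normalised reads + 1) scale, as colour that reaches its ends at -1 and 1. Control replicate 3 has the most genes at their lowest value (17 of 37), and Ldhb and Pfkfb3 stand out as low in m31 replicate 4.

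Leaving out control replicate 3 moved the differences but brought none of the 37 past the threshold. An unadjusted p under 0.05 was then reached by Pfkl and Pgam1, with log2 differences of 0.38 and 0.30, and by Phkg1, Bpgm and Ldha, with log2 differences of -0.30, -0.31 and -0.22. Their adjusted p-values ran from 0.318 to 0.420 (limma). These are 5 of 37 members, and 11.9% of all genes had such a p in the same fit. Aldoa, Gapdh, Pgam2, Pkm, Pygm, Slc2a4, Pfkfb1 and Gbe1 turned from a positive to a negative difference, at -0.10, -0.07, -0.15, -0.04, -0.04, -0.05, -0.09 and -0.02, and Ugp2 from a negative one to 0.01. Of these 9 genes, Aldoa, Pgam2, Pkm, Gbe1, Pfkfb1 and Ugp2 also changed sign when another single library was left out.

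The rest of the pathway was read from a list of 60 further genes, among them the testis and liver isoforms, the other glycogen-targeting subunits, the pyruvate dehydrogenase genes and the carriers of hexose and lactate. Of these 57 were in the table and 53 were tested, and 4, among them Fbp1, Gys2 and Ppp1r3g, were below the minimum. None of the 53 passed the threshold in limma, edgeR or DESeq2. At an unadjusted p under 0.05, limma had 3 higher and 1 lower with m31, which is 7.55% beside 6.79% of all genes, and edgeR and DESeq2 had 4 each. The median log2 difference was 0.02, and 31 of the 53 were positive.

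Gaa, the acid glucosidase that breaks down glycogen in lysosomes, had 10587, 10060 and 10157 normalised reads in m31 replicates 1 to 3, 10839 in the fourth, and 8498, 9697, 7737 and 9013 in the controls. All m31 libraries lay above all controls, with a log2 difference of 0.26 (SE 0.08, unadjusted p = 0.0114, limma adjusted p = 0.652). Ppp1r3e, another glycogen-targeting subunit, also had groups that did not overlap, at 118.6 to 183.9 normalised reads in m31 muscle and 96.3 to 117.3 in control muscle, and a log2 difference of 0.38 (limma adjusted p = 0.720). Groups that do not overlap, higher with m31, were 2 of 53 in this list and 1.84% of all genes. Tbc1d4, which holds back glucose carriers until insulin acts, had 1245 ± 174 normalised reads in m31 muscle and 1482 ± 85.8 in control muscle (SD, n = 4 each) and a log2 difference of -0.26 (limma adjusted p = 0.720). Past these by p were Nhlrc1, a ubiquitin ligase of glycogen metabolism, at 0.25, and the testis dehydrogenase Gapdhs at -0.54, neither at an unadjusted p under 0.05.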

How the data were processed

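Libraries came from total RNA of 8 gastrocnemius samples and the NEBNext Ultra kit, per the labels. The deposited signal is reads per gene over 1 size factor per library. STAR and DESeq2, with no version, and the build GRCh38.p12 stand in the submitters' processing notes, although the gene identifiers are mouse. Strand setting, annotation and filters: not given in the sources used here. Of 11 value columns, 3 match no label and were not used. In all libraries 100% of values were whole multiples of 1 read (within 0.01), which gave back reads and depth. The design foresaw a count test for counts and a log-scale test for normalised values, and the latter applied. limma 3.58.1 (trend, R 4.3.3) was run on log2(value + 1) over the 15960 genes with a mean of at least 10, with Benjamini-Hochberg adjustment over all of them and a threshold of 0.05, and was tested on simulated data. edgeR 4.0.16 and DESeq2 1.42.0 took the recovered reads. Exon lengths and overlaps came from the GENCODE annotation of GRCm38 by identifier. Replicates differed beyond sampling noise (chi-square per degree of freedom 14.3 to 57.9). Named genes were all members and the 6 pathway genes with the smallest p; some of the genes on the lists are not reported here. The members and lists were chosen with earlier results of these data known.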

Additional observations from a re-analysis of the deposited data

Results flagged for a closer look

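In 10 of 98 groups of 4 libraries, counting members and isoform ratios, the highest or lowest library lay so far from the rest that its gap to the nearest value, over the range of the group, passed Dixon's critical value of 0.829. Chance gives about 1 in 20 groups. m31 replicate 1 was the high library for Gpi1 at 25236 normalised reads (others 23138 to 23423), Pgk1 at 31059.8 (24959.8 to 25626), Eno3 at 160872 (136997 to 140554) and Slc16a3 at 14557 (11311 to 11449). m31 replicate 3 was high for Gyg at 9942 normalised reads (8215 to 8501), and control replicate 2 for Fbp2 at 1187 (961 to 990.1). Control replicate 3 was low for Eno1 at 3154 normalised reads (3433 to 3482) and Ldha at 55579 (77314 to 81222). It was also low for the log2 ratio of Hk2 to Hk1, at 4.56 (others from 5.18), and of Pfkm to Pfkl, at 7.61 (8.42 to 8.55).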

How the results depend on the processing

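None of the 37 genes passed the threshold under any of 19 alternatives, and the smallest adjusted p was 0.189 (Bpgm, limma with library weights). Genes past the threshold among all genes numbered 31 with DESeq2, 3 with both m31 replicate 4 and control replicate 3 left out (chosen after seeing the data), and 1 to 2 with a single library left out. Members at an unadjusted p under 0.05 and higher with m31 numbered 1 with no minimum, 1 with quantile normalisation, 3 with library weights, 2 with both libraries left out and 0 to 3 with one left out. Those lower numbered 1 after recentring, 3 with library weights, 3 with both left out and 0 to 3 with one left out. The replicate block gave 1 higher and 2 lower. Same-numbered libraries correlated at -0.18 to 0.05, and not every library correlated best with its own number. No pairing by number was therefore visible, which does not show whether the samples were paired. For these limma alternatives, the share of all genes at such a p is given only without control replicate 3, at 11.9%. The counts are thus not read as a result about the members.

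Opposite signs were found in 70 of 702 alternative values, over 17 members; the cause was not tested. On the log2 scale they were, after recentring on library medians, Pfkp -0.015, Aldoa -0.013, Pkm -0.00095, Pygm -0.0019, Gbe1 -0.0012 and Ppp1r3c -0.025. With quantile normalisation they were Gpi1 0.050, Pfkp -0.011, Pgk1 0.036, Eno1 0.0076 and Eno3 0.033. With library weights they were Aldoa -0.093, Gapdh -0.054, Pgam2 -0.12, Pkm -0.038, Pygm -0.018, Ugp2 0.095 and Pfkfb1 -0.12. Pfkp was -0.040 in edgeR and -0.039 in DESeq2, and Ppp1r3c -0.033 and -0.031. With both libraries left out they were Aldoa -0.10, Gapdh -0.066, Pgam2 -0.13, Pkm -0.039, Ldhb 0.044, Pygm -0.053, Ugp2 0.082, Ppp1r3c -0.098, Slc2a4 -0.0029 and Pfkfb1 -0.081.

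With single libraries left out, log2 differences ran from -0.099 to 0.098 for Aldoa, -0.046 to 0.052 for Eno1, -0.15 to 0.078 for Eno3, -0.067 to 0.17 for Gapdh, -0.13 to 0.16 for Gbe1, -0.078 to 0.056 for Gpi1, -0.46 to 0.045 for Ldhb, -0.090 to 0.14 for Pfkfb1, -0.16 to 0.20 for Pfkp, -0.15 to 0.14 for Pgam2, -0.039 to 0.11 for Pkm, -0.27 to 0.18 for Ppp1r3c, -0.041 to 0.090 for Pygm, -0.026 to 0.28 for Slc16a1, -0.052 to 0.14 for Slc2a4 and -0.12 to 0.081 for Ugp2. Differences in log2 ratio ran from -0.11 to 0.070 for Eno3/Eno1, -0.16 to 0.11 for Hk2/Hk1, -0.12 to 0.40 for Ldha/Ldhb, -0.19 to 0.40 for Pfkm/Pfkp, -0.44 to 0.00096 for Pgam2/Pgam1, -0.27 to 0.18 for Ppp1r3a/Ppp1r3c and -0.095 to 0.38 for Slc16a3/Slc16a1. With the longest transcript as length, the per-kilobase share of a pair was 96.2% for Hk2, 99.7% for Pfkm beside Pfkl, 99.998% for Aldoa, 98.2% for Eno3 and 90.3% for Ldha.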
